A study of Mus musculus with 2 samples.

Results

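A set of 9 genes that mark the structure, axon and transmitter of retinal ganglion cells was examined in the retina of a Sox11 knockout mouse embryo and a wild-type littermate: Nefl, Nefm, Nefh, Sncg, Thy1, Rbpms, Gap43, Slc17a6 and Cntn2. The members are all probe sets of the Affymetrix mouse array that its annotation pairs with exactly 1 of these 9 symbols, which gave 17 probe sets among 45037. A probe set is a group of short oligonucleotides for one transcript, read out as 1 intensity. The 2 samples were 1 wild-type and 1 Sox11-/- retina, each from 1 embryo at embryonic day 18 on a C57BL/6 background, and each was hybridised to 1 array. The labels name no Cre driver and do not give the deleted part of the gene. Neither genotype has a replicate. No error between embryos and no test can therefore be given, and a difference below sets 1 array against 1 other.

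Retinal ganglion cells are the output neurons of the retina, and their axons form the optic nerve. The calibre of those axons is set by neurofilaments, which are polymers built on the light subunit, encoded by Nefl, together with the medium and heavy subunits, encoded by Nefm and Nefh. The heavy subunit accumulates late, as axons mature. Gap43 is a growth cone protein of extending axons, and Cntn2, also called TAG-1, is an adhesion molecule carried transiently by young axons. Thy1 is a surface glycoprotein of projection neurons, Sncg encodes gamma-synuclein, Rbpms encodes an RNA-binding protein, and Slc17a6 encodes VGLUT2, which loads glutamate into synaptic vesicles. Sox11 is a transcription factor of differentiating neurons, and the design asked which transcripts differ when it is missing.

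Cntn2 was the member furthest apart, at least 2.41-fold higher on the knockout array by its brightest probe set, although 1 of its 2 probe sets below the low-value filter was not higher. Nefm and Gap43 read 1.30-fold higher and Sncg 1.20-fold higher, while Nefl, Slc17a6 and Thy1 were close to level and Nefh, a dim probe set, was lower. Log2 ratios subtract the wild-type value of log2(intensity + 5) from that of the knockout, and adding 5 shrinks the differences of dim probe sets. A probe set was counted if its higher intensity was at or above 18.6, the pooled median of both arrays. Of the 17 member probe sets, 15 passed and 13 were above 18.6 on both arrays. Of the 15, 12 were higher and 3 lower (10 and 5 after median centring), where 54.8% of all 23581 probe sets past the filter were higher. At least 2-fold higher were 2 of the 15, both of Cntn2, and none was 2-fold lower; over all probe sets past the filter the shares were 1.47% and 0.399%. Both Cntn2 probe sets passed only through their knockout value, so nothing is read from that count, and with values below the filter raised to it 1 of them was 2-fold higher. Of the 2-fold differences over all probe sets, 78.7% were higher on the knockout array, and this split was 66.7% after quantile normalization and 67.5% after loess. A smaller step, a log2 ratio of 0.32, was reached upward by 5 of the 15, where the background was 17.3%, and downward by 1, where it was 8.08%. The 2 Cntn2 probe sets are among these 5 and among the 12. They had to read higher to pass, so they add nothing to either count.

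**Figure D1:**
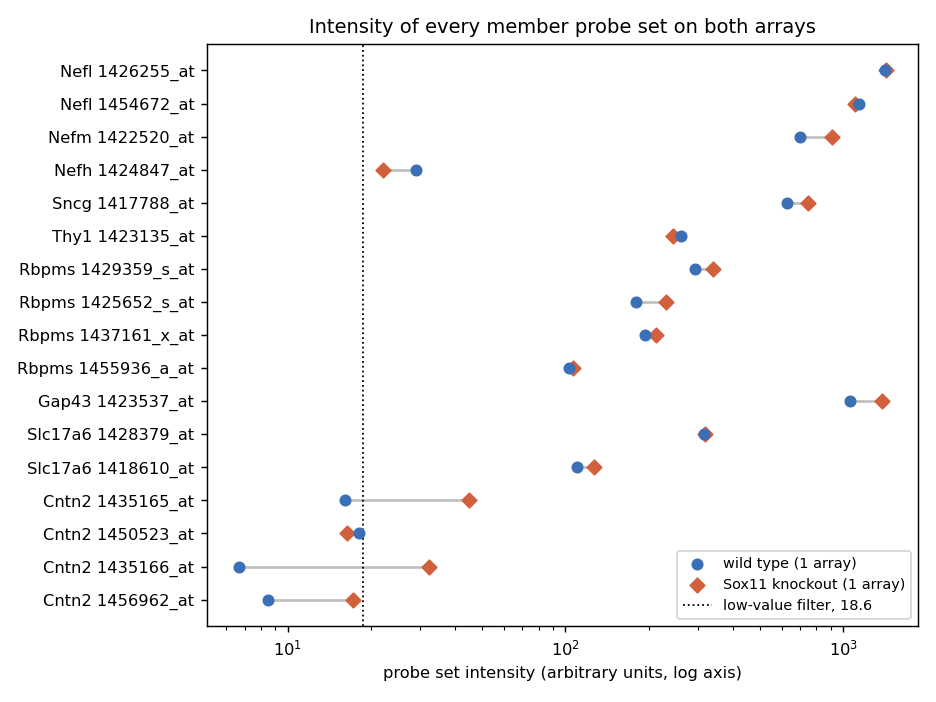
Intensity of each of the 17 member probe sets (arbitrary units, log axis) on the wild-type array (circles) and the Sox11 knockout array (diamonds), 1 array per genotype, with the low-value filter of 18.6 as a dotted line. The Cntn2 probe sets lie at the low end, and the points of Nefl nearly coincide.

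The 3 neurofilament subunits differed in their ratios. Nefl was measured by 2 bright probe sets. On the first, 1426255_at, the wild-type array had 1418.4 and the knockout array 1426.7, which is a log2 ratio of 0.01. The second, 1454672_at, read 1138.2 and 1104.9, a log2 ratio of -0.04. The light subunit was thus level between the arrays on both of its probe sets. Nefm, which neighbours Nefl in the genome with no other protein-coding gene between them, read 700.7 and 908.3 on its only probe set, a log2 ratio of 0.37. The ratio of Nefm exceeded that of Nefl by 0.36. For comparison, when all probe sets past the filter were divided by level into 4 equal bands, ratios of probe sets for one gene had a pooled SD of 0.17 in the brightest band, to which these probe sets belong. That SD is the spread of a single ratio around the mean of its gene, and a difference between 2 ratios spreads more widely. The 0.36 is such a difference, so it cannot be set directly against 0.17. The SD is also a spread within 2 arrays and holds nothing about the spread between embryos. Nefh had 29 on the wild-type array and 22 on the knockout array, with a log2 ratio of -0.33. Both intensities lie little above the filter of 18.6, in the lowest band, where the same SD was 0.38 and 13.6% of all probe sets were lower by 0.32 or more.

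The axon growth and adhesion genes Gap43, Cntn2 and Thy1 ranged more widely. Gap43 had 1061.7 on the wild-type array and 1375.4 on the knockout array for its only probe set, giving a log2 ratio of 0.37. In the brightest band, 4.44% of all probe sets were higher by 0.32 or more, and of the 7 member probe sets there, the 2 of Gap43 and Nefm were. Thy1 was slightly lower, with 260.9 and 244 and a log2 ratio of -0.09. Thy1 is not restricted to ganglion cells, since fibroblasts and other cells of mesenchyme carry it too.

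Cntn2 was measured by 4 probe sets, and all of them were dim. For 1435165_at, the brightest, the intensities were 16.1 (wild type) and 44.9 (knockout), and the log2 ratio was 1.24. For 1435166_at they were 6.7 and 32.4, with a log2 ratio of 1.68, or at least 1.74-fold against the filter value. Both were below the filter in the wild type and above it in the knockout, and the annotation gives them the same source accession, so they are not independent readings of the gene. The other 2 probe sets did not pass the filter on either array. Of these, 1456962_at read 8.5 and 17.2, and 1450523_at read 18 and 16.3, which is not higher in the knockout. A probe set of low level that passes only through its knockout value had to read higher there. Among the 1430 probe sets of the lowest band that passed in that way, 16.8% were at least 2-fold higher, against 0.923% of the 3790 that were above the filter on both arrays. With wild-type values raised to the filter, the log2 ratios of the 2 passing probe sets were 1.08 and 0.66. The 4 other contactin genes past the filter, Cntn1, Cntn3, Cntn4 and Cntn6, had log2 ratios between 0.01 and 0.29 (the lowest, that of Cntn4, turned to -0.02 after median centring, -0.09 after quantile normalization and -0.08 after loess), and none was 2-fold apart.

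All 7 probe sets of Sncg, Rbpms and Slc17a6 had a positive ratio as deposited, although 2 of them turned under other scalings. The brightest Slc17a6 probe set was near 0 and turned to -0.03 after median centring. The dimmest of Rbpms, 1455936_a_at, turned to -0.02 after quantile normalization and -0.01 after loess. Sncg read 627 and 749.8, a log2 ratio of 0.26. Rbpms had 4 probe sets past the filter. The brightest, 1429359_s_at, read 293.2 and 340.1, a log2 ratio of 0.21. The others were 1425652_s_at with 179.5 and 230.8, 1437161_x_at with 192.6 and 211.1, and 1455936_a_at with 103.2 and 106.5, and their log2 ratios were 0.35, 0.13 and 0.04. The Rbpms probe sets therefore spread over 0.31 log2 units, and all 4 carry a suffix that marks probe sets able to match several transcripts. The annotation gives 1437161_x_at and 1455936_a_at the same source accession, so they are not independent readings. Slc17a6 read 316.6 and 317.3 on 1428379_at, a log2 ratio of 0.00, and 109.9 and 126.3 on 1418610_at, a log2 ratio of 0.19. The vesicular transporter was level on its brighter probe set.

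**Figure D2:**
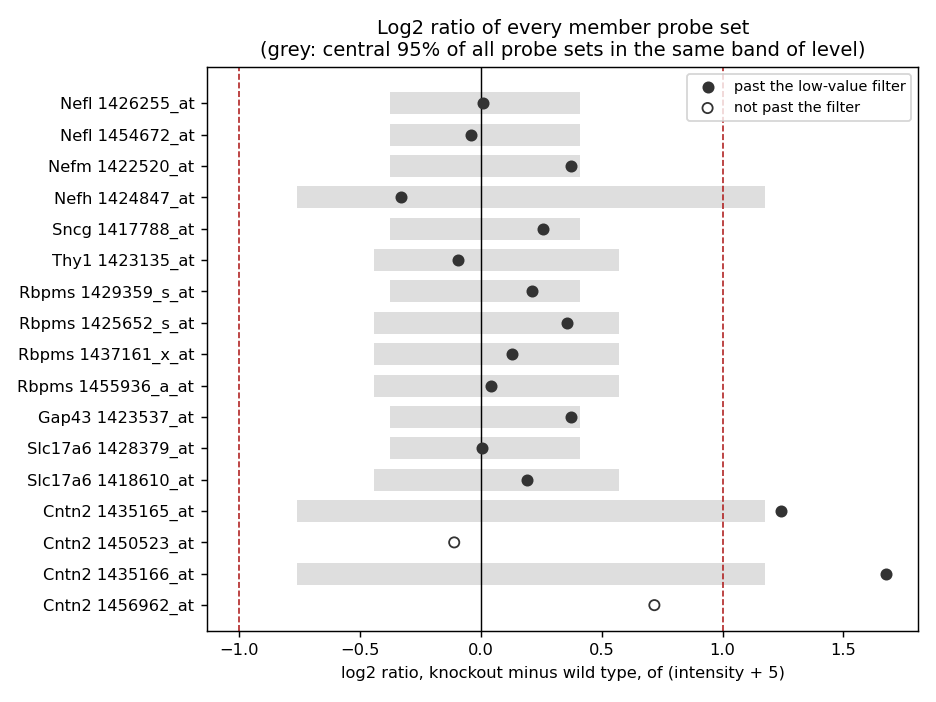
Log2 ratio (knockout minus wild type, of intensity + 5) of each member probe set, filled where it passed the low-value filter, with grey bars for the central 95% of all probe sets in the same band of level and dashed lines at 2-fold. The 2 filled Cntn2 points, which passed only through their knockout value, lie beyond their grey bar, which ends at 1.18. With values below the filter raised to that filter they are 1.08 and 0.66. No bar was computed with raised values, so those 2 values cannot be set against the bar shown. The other 13 filled points lie inside theirs.

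In order of the log2 ratio of the brightest probe set, Cntn2 at 1.24 (1.08 with its wild-type value raised to the filter) was followed by Nefm and Gap43 at 0.37 each, Sncg at 0.26, Rbpms at 0.21, Nefl at 0.01, Slc17a6 at 0.00, Thy1 at -0.09 and Nefh at -0.33. Below Cntn2, whose wild-type value gives only a bound, the largest gap between neighbours in that order was 0.24, between Thy1 and Nefh. Neighbours in a sorted order lie close by construction, and the SD between probe sets is no measure for a difference of 2 ratios. These gaps therefore do not tell whether the order holds. The median over the 9 genes was 0.21, beside -0.01 over all 11557 genes past the filter. Leaving out the dim Cntn2 and Nefh, the highest and the lowest of the 9, could not change this median, so nothing is read from that. Of the 9 genes, 7 were higher, where 47.7% of all genes were, and 5 of 9 were higher after median centring, which turned the ratios of Nefl and Slc17a6 to -0.02 and -0.03. Lower were 2, Thy1 and Nefh, where 52.1% of all genes were. Cntn2 alone was at least 2-fold higher and no gene 2-fold lower; the shares over all genes were 0.943% and 0.407%, and nothing is read from the count, since Cntn2 passed the filter only through its knockout value and was at 0.87 with the pseudocount at 18.6. Cntn2, Nefm and Gap43 were higher by 0.32 or more, where 11.2% of genes were, and Nefh was lower by as much, where 8.6% were. Cntn2 had to read higher to pass, so it adds nothing to this count or to that of the 7 higher genes. In bulk tissue, more cells of a type cannot be told apart from more RNA per cell.

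**Figure D3:**
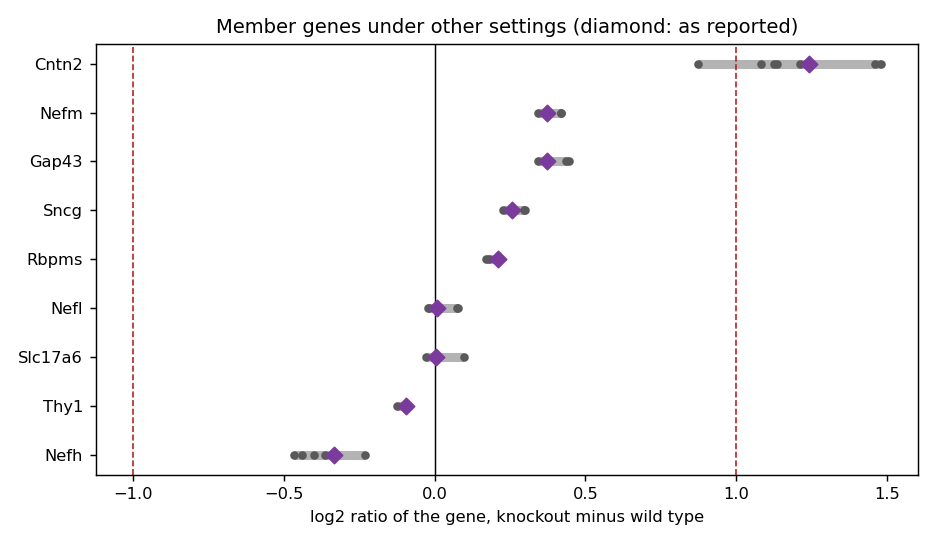
Log2 ratio (knockout minus wild type) of the 9 member genes as reported (diamonds) and under the other settings run (dots, with a grey bar for their range), with dashed lines at 2-fold. Cntn2 ranges from 0.87 to 1.48, and the dots of Nefl and Slc17a6 lie on either side of 0.

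Promoter windows from RefSeq (GRCm38.p6) were at hand for 3 of the 9 members, Sncg, Slc17a6 and Cntn2, with 2 start sites for Slc17a6. The 250 bases before each start were searched on both strands for the SOX core letters ACAAAG and ACAAT and the POU4 core ATAAT, which share no bases in any match found here. Among 32536 distinct windows of that length, 16.5% held ACAAAG, 27.4% held ACAAT and 24.1% held ATAAT. The windows of Cntn2, Sncg and the upstream Slc17a6 start held none of them; the window of Cntn2, like that of the downstream Slc17a6 start, lies inside the gene as the RefSeq gene table draws it. The downstream Slc17a6 start held 1 match of each, beginning 93 bases before the start for ACAAT, 79 for ATAAT and 35 for ACAAAG. A match is a description of letters and no evidence of binding. The sequences are shown to compare the member that was furthest apart with the level transporter and with Sncg. They run 5′ to 3′ on the gene's strand, and capitals mark the matches, both read here as reverse complements. The first is chr1:132542941-132542970 (minus strand, the last 30 bases before the start), the second chr14:34374670-34374919 (minus strand), the third chr7:51621580-51621829 (plus strand) and the fourth chr7:51624539-51624568 (plus strand, the stretch with the ACAAT and ATAAT matches).
Cntn2: ccgagcgttggctgaggagccgagccagcc
Sncg: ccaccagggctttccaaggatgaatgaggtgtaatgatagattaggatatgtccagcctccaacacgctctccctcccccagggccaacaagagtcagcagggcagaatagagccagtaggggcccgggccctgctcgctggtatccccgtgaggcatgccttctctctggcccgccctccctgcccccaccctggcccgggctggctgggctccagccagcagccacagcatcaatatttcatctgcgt
Slc17a6, upstream start: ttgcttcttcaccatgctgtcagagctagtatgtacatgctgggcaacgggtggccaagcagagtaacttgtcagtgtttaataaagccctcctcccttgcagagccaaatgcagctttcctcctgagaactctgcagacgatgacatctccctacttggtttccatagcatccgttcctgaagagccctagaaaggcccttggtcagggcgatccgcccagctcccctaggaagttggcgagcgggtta
Slc17a6, downstream start: gcaagATTGTgaatgattaATTATtcatgt

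The genes that work beside the members were read from lists, each described by its counts and its median beside the median of -0.01 over all genes. Among other intermediate filament genes, 3 of the 6 past the filter were higher and 3 lower (4 and 2 after quantile normalization or loess), with a median of 0.08. Nes, encoding the progenitor filament nestin, had a log2 ratio of 0.43 and Vim, encoding vimentin, 0.25, while Gfap had -0.38 (at least 1.09-fold lower) and Krt18 -0.37. Ina, which encodes alpha-internexin and co-assembles with the neurofilament subunits, read 1695 and 1619.2, a log2 ratio of -0.07 that turned to 0.01 after loess. Prph, the filament gene of peripheral neurons, was below the filter on both arrays. Of 7 genes of neurofilament turnover and phosphorylation, 5 were higher, with a median of 0.10. Their ends were the cytoskeletal linker genes Dst at 0.20 and Macf1 at 0.14, and Fbxo7 at -0.20 and Cdk5r1, an activator subunit of the kinase Cdk5, at -0.19.

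By its brightest probe set, no growth cone or axon growth gene of the list was higher by 0.32 or more, although probe sets of Map1b and Marcks reached 0.83 and 0.41. Of 18 past the filter, 12 were lower and 6 higher, with a median of -0.13. That median depended on scaling: after loess it was -0.03, like the median of all genes, with 11 lower and 7 higher. The microtubule regulators Stmn4 and Stmn3 had the lowest ratios, -0.48 and -0.45, and Map1b and Nrn1 the highest, 0.22 and 0.20. The brightest Stmn3 probe set is able to match several transcripts, and its other probe set past the filter was at -0.04. Basp1, a membrane protein of growth cones like Gap43, read 3475.9 and 3139.8, a log2 ratio of -0.15 (-0.05 after loess). Of 14 axonal transport genes, 10 were lower, with a median of -0.10 (0.10 with each gene at the median of its probe sets), and none 0.32 apart by its brightest probe set. Dync1h1, the dynein heavy chain, and Kif1a had 0.24 and 0.14, and the kinesin genes Kif5b and Klc1 had -0.28 and -0.21. Other probe sets of these genes disagreed: Kif5b ran up to 0.62, Kif5c and Kif1b to 0.62 as well, and Mapk8ip1 down to -0.65.

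Axonal adhesion genes were mixed, with 9 of 14 higher (7 after median centring) and a median of 0.10, which was 0.020 without the low-value filter and 0.20 with each gene at the median of its probe sets. By brightest probe set, Nfasc, encoding neurofascin, had the highest ratio at 0.61, though its probe sets ran from -0.26 to 0.61, and Epb41l3 followed at 0.36. Other probe sets of Epb41l3, Nrcam and Ncam1 reached 0.70, 0.87 and 0.81, although the brightest of Nrcam and Ncam1 were at -0.02 and -0.21. Chl1, a close homologue of L1cam, had the lowest at -0.55, from 182 to 123.1, and Dscam had -0.27. The glutamate genes had a median of -0.01 over 4, with Slc1a2 at 0.35, Glul at 0.00 (0.08 after loess), Slc1a1 at -0.02 and Slc1a3, the glial uptake carrier, at -0.18. Slc17a7, encoding VGLUT1, was below the filter on both arrays. Sncb, the relative of Sncg that encodes beta-synuclein, read 140.6 and 97.1, a log2 ratio of -0.51, opposite in sign to Sncg.

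Ganglion cell genes outside the 9 members were more often higher than lower. Of 17 transcription factors past the filter, 12 were higher (11 after quantile normalization or loess), with a median of 0.22, and 8 were higher by 0.32 or more (7 under each other scaling), where 11.2% of all genes were; of the 8, Ebf2 passed only through its knockout value. Atoh7, which ganglion cell formation needs, had 0.87 by its brightest probe set and 1.20, past 2-fold, on its other probe set. Ebf2 had 1.06 from 8.4 to 23, which bounds it only at 1.24-fold, and Eomes at -0.38 and Irx2 at -0.23 were the lowest. Of 17 other ganglion cell genes, 13 were higher (12 under the other scalings), with a median of 0.12. The neuropeptide gene Gal had 0.81 and the axon guidance receptor Robo2 0.79 (from 16.6 to 32.3, at least 1.74-fold), and Kcnd2 at -0.60 and Pcdh9 at -0.45 were the lowest. The other probe sets of Kcnd2 and Pcdh9 past the filter were at -0.31 and -0.05.

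**Figure D4:**
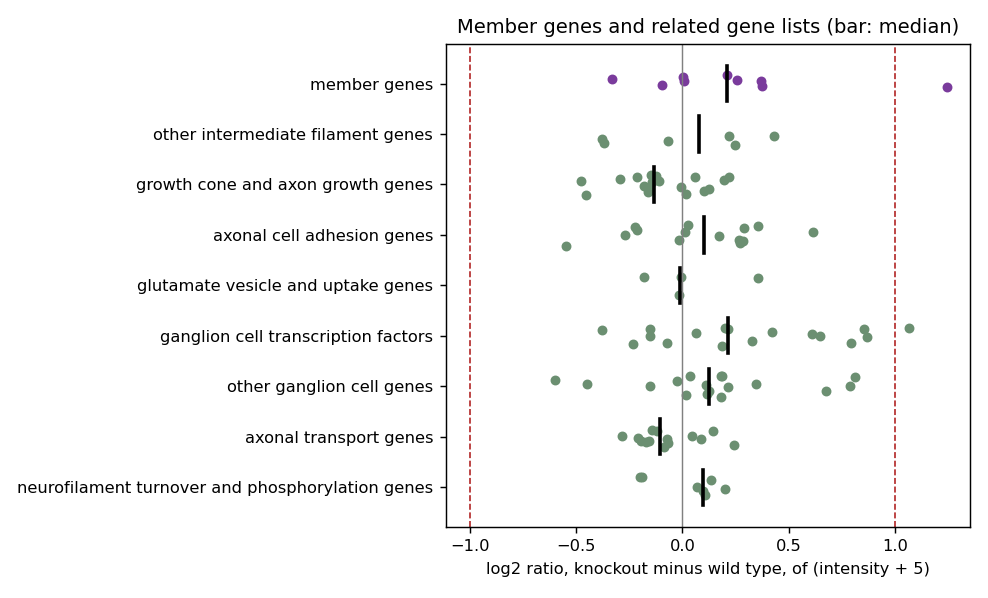
Log2 ratio (knockout minus wild type, of intensity + 5) of each gene past the filter in the member list and 8 related lists, 1 point per gene from its brightest probe set, with a bar at the list's median and dashed lines at 2-fold. The member median of 0.21 and the transcription factor median of 0.22 are the highest bars, and growth cone genes have the lowest at -0.13.

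Rax, a marker of neural retina, at 564.8 and 578.9 and Pou4f1, a ganglion cell marker, at 658.4 and 751 were well above the filter. Not all ganglion cell genes were. In the list of ganglion cell transcription factors and in that of other ganglion cell genes, 1 gene each was below it on both arrays. In each list, 1 other passed only through the knockout. Other differences between the 2 retinas run beside the member values. Of the 6 Sox11 probe sets, 5 were lower in the knockout, with log2 ratios from -3.64 to -0.18, and 1 was higher at 1.08. The one at -0.18 read 836.9 and 740.2. Xist read 12.3 and 922.7 on its brightest probe set and the Y-linked Eif2s3y 214 and 4.7, so the embryos differed in sex-linked transcripts as well as in Sox11, and genotype, sex and embryo cannot be told apart. No member lies on a sex chromosome. The 8 mesenchyme markers past the filter were higher, but 6 of them passed only through the knockout, and Foxc2 and Twist1, below the filter on both arrays, had -0.29 and -0.65. The median of the 8 was 1.75 (1.10 with values raised to the filter) and the summed intensity of the list was 149 and 694.1, with Col3a1 at 3.82 (at least 13.6-fold) and Foxc1 at 0.26. The 9 macrophage and microglia markers past the filter were higher (median 1.14), 2 of them passing only through the knockout. The list had sums of 357 and 771.6, with Mpeg1 at 2.19 (at least 2.75-fold) and Cx3cr1 at 0.51. Below the filter on both arrays, Itgam had -0.58, and Aif1 and Ptprc had 1.12 and 0.90. The 6 pigment epithelium markers past the filter were higher, 3 of them passing only through the knockout, with a median of 0.85 (0.30 with raised values). The list had sums of 251.5 and 400.2, with Ttr at 1.46 (from 4.4 to 20.8, at least 1.12-fold) and Tyrp1 at 0.19. Best1 and Rgr, below the filter on both arrays, had -1.03 and -0.74, and Rpe65, also below it, had 0.45. Of 7 lens markers, 4 were higher (median 0.57), and of the 7, 1 passed only through the knockout and 1 only through the wild type. The list had sums of 549.6 and 605.4, with Crygd at 2.84 (at least 3.26-fold) and Cryab at -1.28. The part of these in the values of Cntn2, Gap43, Nefm and Thy1 was not tested.

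Horizontal cells also contain neurofilaments, and 4 of 5 of their markers past the filter were higher, 1 of them passing only through the knockout. The median was 0.58 (0.46 with values raised to the filter). The list had sums of 232.7 and 324.1, with Onecut1 at 0.76 (at least 1.47-fold) and Calb1 at -0.16. Onecut3, below the filter on both arrays, had -0.58. Of 10 amacrine markers, 8 were lower (7 after quantile normalization or loess), with a median of -0.14. The list had sums of 4872.7 and 4564.2, with Gad1 at -0.65 and Tfap2b at 0.16. The other Tfap2b probe set past the filter was at -0.04. Of 6 rod markers, 5 were lower, 2 of them passing only through the wild type (median -0.99, or -0.83 with raised values). The list had sums of 1735.7 and 1058.1, with Sag at -2.40 and Gnb1 at 0.04. The other Gnb1 probe set past the filter was at -0.59. Progenitor markers were split 5 and 5 (median -0.01; 6 higher and 4 lower after quantile normalization or loess), with sums of 13395.7 and 13523.7, and Sfrp2 at 0.78 and Hes5 at -0.25. Of the markers of peripheral sensory neurons, 5 of 7 were below the filter on both arrays, among them Prph and Avil, and P2rx3 and Tac1 had 0.16 and 0.12, with sums of 281.8 and 310.4. Of Schwann cell markers, 4 of 6 were below it, among them Sox10 and Foxd3, and Erbb3 had 0.77 (from 10.1 to 20.8, at least 1.12-fold) and Pmp22 -0.23, with sums of 532.8 and 461.9. Of astrocyte and optic nerve glia markers, 4 of 7 were below it, and Aldh1l1 had 0.64 (at least 1.23-fold). Pdgfra read 156.2 and 74.9, a log2 ratio of -1.01, and its other probe set past the filter was at -0.31. The list had sums of 233.4 and 136.8. No marker was listed at 0 on either array.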

How the data were processed

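Per the labels' protocols, total RNA of each retina was primed with an oligo-dT, amplified, labelled as biotin-cRNA and hybridised. The authors deposited 1 linear intensity per probe set and array. Its software and settings: not given in the sources used here. The mean without 2% of values at each end was 100 on both arrays. The 64 control probe sets were left out, and log2(intensity + 5) was taken, 5 being the pooled 25th percentile, with no further normalization (Python 3.11.15, pandas 2.3.3). A gene's value is that of its brightest probe set past the filter, by mean log2 value. All 17 member probe sets matched the same symbol in a GRCm38.p6 gene table. The 4 bands of level divide the 23581 probe sets past the filter. With 1 array per genotype, precision is limited by their number and no test was run; 2-fold was the call. The fold scripts were tested on simulated data with large differences in bright probe sets only, so that test does not cover dim probe sets or small ratios. From each related list the 2 highest and 2 lowest genes were named, and from each marker list the highest and lowest. Basp1, Ina, Prph, Slc17a7, Rax, Pou4f1, Foxc2, Twist1, Marcks, Kif5c, Kif1b, Mapk8ip1, Xist, Eif2s3y and the contactins beside Cntn2 were named after their values were seen. So were Best1, Rgr, Rpe65, Itgam, Aif1, Ptprc, Onecut3, Nrcam and Ncam1. Members and lists were chosen with earlier results of these data known. Of the listed genes, 21 entries had no probe set of their own name and were not analysed here. Protein sequences were not used here.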

Additional observations from a re-analysis of the deposited data

How the results depend on the processing

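The alternatives were median centring, quantile normalization, loess (span 0.3), no pseudocount, a pseudocount at 18.6, no low-value filter, a filter at 109.4, dropping the probe sets able to match several transcripts, the median over probe sets, and, chosen after seeing the data, raising intensities below 18.6 to it. The median over the member genes ranged from 0.13 to 0.21 over these 10 settings, and Nefm, Gap43 and Sncg stayed positive and Thy1 and Nefh negative wherever they had a value. Differences were called moved past 0.26, the pooled SD of ratios between probe sets of one gene over all levels. The member probe sets that were lower numbered 5 after median centring. Those past 2-fold numbered 1 with the pseudocount at 18.6, 1 with values raised to the filter and 0 with the filter at 109.4, which left out Cntn2 and Nefh. The Cntn2 ratio was 0.87 with that pseudocount. Medians of marker lists moved more. Mesenchyme was 2.15 without a pseudocount, 1.22 with it at 18.6, 1.31 without the filter, 3.57 with the filter at 109.4 and 1.10 with raised values. Schwann cell markers were -0.23 without the filter and with the higher one, and -0.053 with raised values. Astrocyte markers were -1.01 with the filter at 109.4, -0.69 without probe sets matching several transcripts and -0.095 with raised values. With the filter at 109.4, macrophages were 0.72 and lens 0.026, and pigment epithelium was 0.30 with raised values. Fewer genes entered at the higher filter; otherwise the cause was not tested. No paired analysis was possible because each genotype has 1 array.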
